A study of Mus musculus with 12 samples.

Results

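This account follows 36 mouse genes of the lysosome through 12 RNA sequencing libraries of bone marrow derived macrophages. The genes were taken by name from the known content of the lysosome: 11 cathepsins and other peptidases, 8 glycosidases, 8 lipid hydrolases, sterol carriers and cofactors, 6 membrane proteins and the 3 transcription factors Tfeb, Tfe3 and Mitf. All 36 were found among the 55891 gene identifiers of the deposited table, and all 36 passed the filter on low counts that left 13525 genes to test. M-CSF, which drives marrow progenitors to become macrophages, was given at 10 ng/mL through 6 days of culture. The cells were then left untreated (control), given 100 ng/mL LPS together with 10 ng/mL IFNγ, or given 20 ng/mL IL-4, each for 24 h. LPS is a bacterial cell wall component and IFNγ a lymphocyte cytokine, and together they drive the inflammatory state called M1, whereas IL-4 drives the alternative state called M2. Each treatment was applied to wild-type (WT) cells and to cells with a knockout (KO) of Ptprz1, a receptor-type tyrosine phosphatase, with 2 libraries in each of the 6 groups. The labels name the strain B6.129-Ptprz1tm1Nmo for the KO and the WT libraries alike, while the WT titles read B6. They do not say whether the libraries of a group came from separate mice, and the p-values therefore reflect no more than the spread among these 12 samples, part or all of which may be technical.

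Lysosomes are acidic compartments in which hydrolases break down proteins, glycans and lipids delivered by endocytosis, phagocytosis and autophagy. Macrophages are rich in them because they ingest microbes, dead cells and lipoproteins. Cathepsins are the proteases of the compartment and glycosidases trim sugar chains. Some lipid-degrading enzymes need saposins to reach lipid in membranes, and Npc2 carries cholesterol. Tfeb, Tfe3 and Mitf are related basic helix-loop-helix factors known to bind an E-box motif in the promoters of many lysosomal genes.

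Library totals lay between 13665607 and 19555600 counts, the lowest being KO LPS+IFNγ library 2. Levels below are in CPM, counts per 1000000 of the library total scaled by the trimmed mean of M-values (TMM), whose factors were 0.756 to 0.833 with LPS+IFNγ and 1.09 to 1.16 in the other libraries. A count of 3 corresponds to 0.138 to 0.290 CPM, and these limits cover counting error only. Ptprz1 itself had 0 counts in 11 libraries and 7 counts in WT IL-4 library 2, so it could not check the genotype labels. The 2 KO libraries of a treatment differed from each other more than the 2 WT libraries did, with a chi-square per gene of 48.4 to 54.9 against 7.10 to 15.6. Xist, transcribed from the inactive X chromosome of females, had 232 to 618 CPM in WT and 0 in KO, and the Y-linked Ddx3y had 0 in WT and 86.3 to 111 CPM in KO. Genotype and sex therefore cannot be told apart in these libraries. The 7 macrophage markers summed to 7129 to 20377 CPM, the 4 LPS+IFNγ response genes to 6526 to 8365 CPM with that treatment and 36 to 66.6 CPM without it, and the 4 IL-4 response genes to 2553 to 3435 CPM with IL-4 and 157 to 572 CPM without it. The 8 stromal markers summed to 60.8 to 340 CPM in WT and 285 to 1341 CPM in KO. Granulocyte markers reached at most 39.2 CPM in 11 libraries and 220 CPM in KO LPS+IFNγ library 2, with Ly6g at 0 throughout. B cell, T and NK cell, dendritic cell and mast cell markers each summed to at most 2.06 CPM, with Cd3e, Ncr1 and Mcpt4 at 0.

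The promoters of these genes are shown first because the E-box is the letter pattern that links the factors among them to the enzymes. RefSeq promoter windows on GRCm38.p6, from 250 bases before to 50 after the start of transcription, were at hand for 32 of the 36 genes; Ctsb, Ctsh, Asah1 and Npc1 were not matched. The E-box CACGTG occurred in 10 of the 32 windows (31.2%: Ctsa, Ctsd, Ctsf, Ctsl, Lgmn, Gla, Glb1, Naglu, Lamp1 and Mcoln1) and in 8.09% of 27025 genes with a window. The extended form TCACGTGA, which contains the E-box, occurred in 4 of 32 (12.5%) and in 1.12% of all genes. Both motifs read the same on both strands. Below are stretches of the 4 promoters with the extended form and of the Lamp1 promoter with its 4 E-boxes, with the motif in capitals and everything written 5′ to 3′ on the strand of the gene.
Ctsa (chr2:164833749-164833772, plus strand): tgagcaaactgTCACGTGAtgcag
Ctsd (chr7:142387908-142387937, minus strand): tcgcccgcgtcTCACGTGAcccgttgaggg
Mcoln1 (chr8:3500462-3500491, plus strand): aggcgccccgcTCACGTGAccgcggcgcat
Gla (chrX:134601174-134601252, minus strand): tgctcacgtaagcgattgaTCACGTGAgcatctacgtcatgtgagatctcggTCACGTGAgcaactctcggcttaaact
Lamp1 (chr8:13159080-13159160, plus strand): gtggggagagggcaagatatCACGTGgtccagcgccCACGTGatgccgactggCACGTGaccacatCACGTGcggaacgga
Counted from the start of transcription, the 2 extended motifs of Gla begin at positions -228 and -195, that of Mcoln1 at -46, that of Ctsd at -99 and that of Ctsa shown here at -13. The STAT-type motif TTCNNNGAA, searched on both strands after the values were known, occurred in 1 of the 32 windows, as TTCCTTGAA at position -236 of Ctsc, against 9.55% of all genes. The same motif with 1 more base in its spacer, also searched then, occurred in 1 window, at position -234 of Tfeb, against 8.01% of all genes. These matches describe letters in a window, not binding.

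Levels in this paragraph are divided by the union of all annotated exons of a gene, and their order depends on that length. Without the division, Ctsb came first in WT control at 11900 CPM, before Ctsd at 9500 and Psap at 8250 CPM. Per kilobase of annotated exon, the most abundant of the 36 transcripts in WT control cells was Ctsd, an aspartic protease, at 4040 ± 24.6 CPM per kb (SD, n = 2). It was followed by Psap, the precursor of the saposins, at 3010 ± 42.0 CPM per kb. The cysteine proteases Ctsb and Ctss came next at 1970 ± 10.4 and 1870 ± 127 CPM per kb and did not differ beyond their spread. Cd68, a heavily glycosylated membrane protein used as a macrophage marker, stood at 830 ± 49.7 and Lamp1, a main constituent of the lysosomal membrane, at 656 ± 18.9 CPM per kb. Lgmn (520 ± 10.8 CPM per kb) and Ctsz (519 ± 0.032 CPM per kb) were indistinguishable. Ctsf was the rarest at 1.5 ± 0.488 CPM per kb, below Mcoln1 at 7.16 ± 0.362 CPM per kb. After LPS+IFNγ the order changed: Psap (3980 ± 184 CPM per kb) and Ctss (3160 ± 146 CPM per kb) stood above or level with Ctsd (3070 ± 123 CPM per kb), and Ctsc moved from 31.8 ± 1.15 to 322 ± 20.2 CPM per kb, the tenth place. After IL-4, Psap led at 5460 ± 53.0 CPM per kb with Ctsd at 4090 ± 72.5 CPM per kb.

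Together the 36 genes made up 5.87% ± 0.0573 (SD, n = 2) of all counts in WT control libraries, 4.44% ± 0.0759 after LPS+IFNγ and 6.59% ± 0.0944 after IL-4. In KO cells the shares were 6.5% ± 0.109, 4.19% ± 0.577 and 6.74% ± 0.0960. Cathepsins supplied most of it, at 3.40% ± 0.0381 of counts in WT control and 2.44% ± 0.0036 after LPS+IFNγ. Glycosidases went from 0.311% ± 0.00181 to 0.129% ± 0.00163 of counts in the same 2 groups. The LPS+IFNγ libraries lay below the control libraries in both genotypes for these shares, which are taken over the unscaled totals. On such totals, without TMM, the median log2 fold change with LPS+IFNγ over all genes tested was -0.55 in WT and -0.51 in KO. A lower share is therefore not particular to these 36 genes. In bulk RNA, fewer cells carrying a transcript and less of it per cell cannot be told apart.

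**Figure D1:**
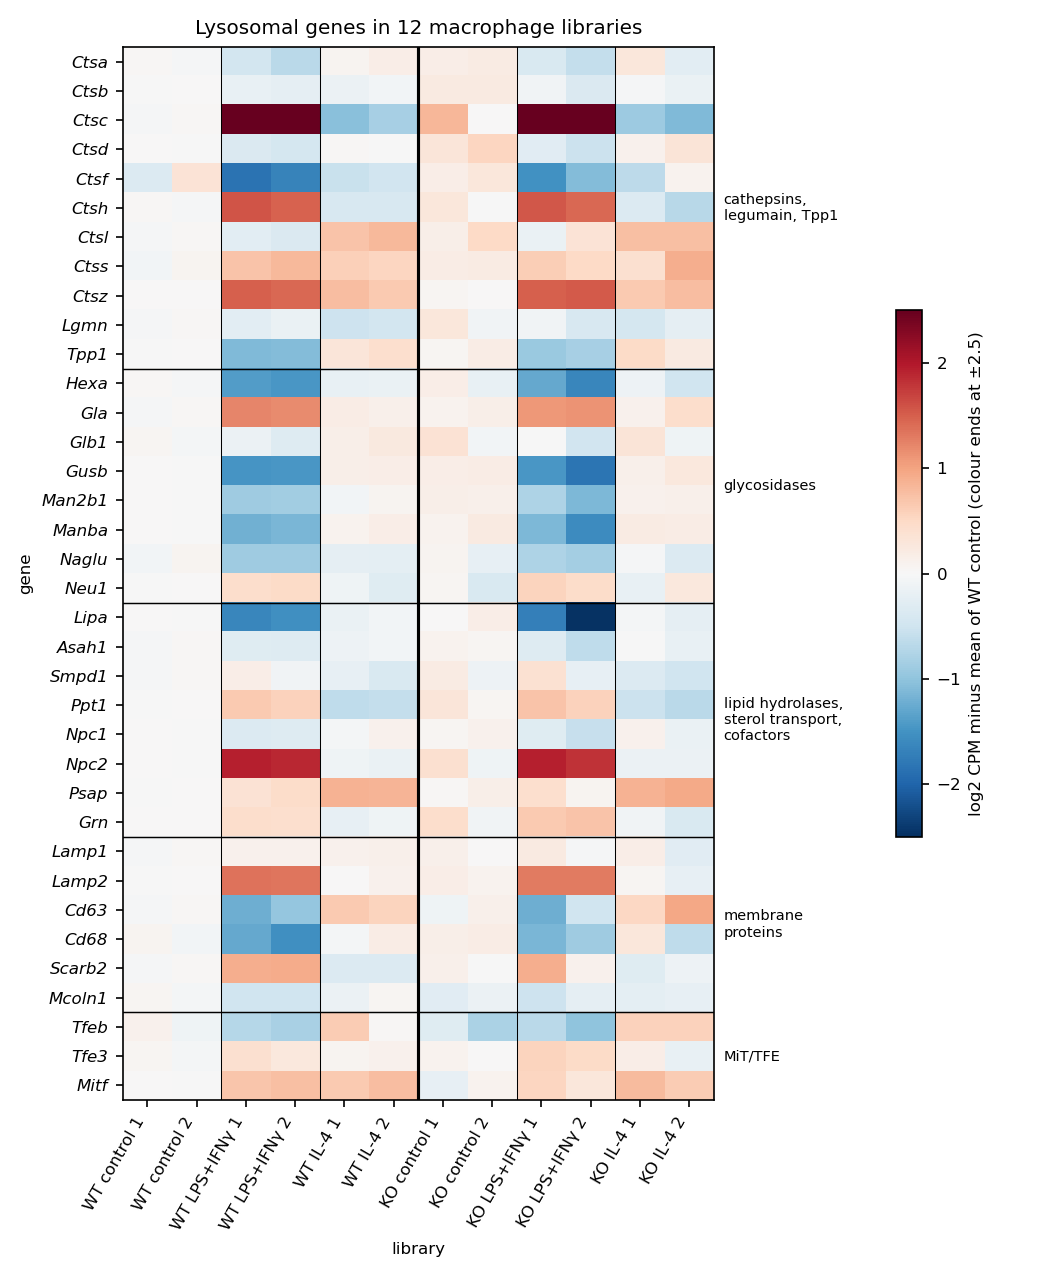
Colour shows log2 CPM of each of the 36 genes (vertical axis, grouped by role) in each of the 12 libraries (horizontal axis) after subtraction of the mean of the 2 WT control libraries. Red and blue blocks in the LPS+IFNγ columns of both genotypes mark genes that moved in opposite directions within the same role, such as Ctsc (log2 fold change 3.34 in WT) and Ctsf (-1.80).

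After LPS+IFNγ some lysosomal transcripts of WT macrophages were higher and others lower, led by Ctsc and Npc2 among the former and by Ctsf and Lipa among the latter. Against WT control, 11 of the 36 genes rose and 13 fell, with 12 not called (edgeR quasi-likelihood test, Benjamini-Hochberg adjusted p below 0.05 over all 13525 genes). Over all genes tested, 27.4% rose and 27.0% fell, so the 2 shares of the lysosomal genes lie near the background for rises and somewhat above it for falls. Their median log2 fold change was -0.22, beside -0.05 over all genes. In KO cells 11 rose and 15 fell, against 27.2% and 26.1% of all genes, with medians of -0.26 and -0.01. Scaling by library totals alone, without TMM, lowered the LPS+IFNγ against control contrasts by 0.50 on the log2 scale in both genotypes. It left 6 of the 36 genes higher and 20 lower in WT, and 6 higher and 21 lower in KO; 24.9% of the calls over all genes were then rises in WT, instead of 50.4%, and 24.8% in KO, instead of 51.0%. With that scaling, Ctsb, Ctsd, Ctsl, Lgmn, Glb1, Asah1 and Npc1 were also called lower in WT, at -0.70 to -0.89, and Ctss, Ppt1, Scarb2, Tfe3 and Mitf were no longer called higher. In KO, Ctsl, Lgmn, Glb1, Lamp1, Mcoln1 and Tfeb were also called lower, at -0.46 to -0.88, and Neu1, Ppt1, Grn, Tfe3 and Mitf were no longer called higher. The KO count also depends on the pooled spread: fitted on the KO control and LPS+IFNγ libraries alone, 15 genes were called instead of 26. Calls of Ctsa, Ctsb, Ctsd, Neu1, Asah1, Ppt1, Npc1, Grn, Cd63, Tfe3 and Mitf ended, at edgeR adjusted p of 0.0536 (Ctsa) to 0.321 (Ctsb).

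Among the 11 proteases, 4 rose (Ctsc, Ctsh, Ctss and Ctsz), 3 fell (Ctsa, Ctsf and Tpp1) and 4 were not called in WT. Shares over all genes tested were 27.4% for rises and 27.0% for falls. Ctsc encodes dipeptidyl peptidase 1, which activates serine proteases of granules, and lies on chr7:88278085-88310888 (GRCm38, plus strand). It had 180 and 190 CPM in WT control, 1950 and 1790 CPM after LPS+IFNγ, and 89.6 and 104 CPM after IL-4. In KO cells it had 329 and 186, 1920 and 2010, and 98.4 and 85.8 CPM in the same order. All 4 LPS+IFNγ libraries lay above all others, and KO control library 1 stood above the other 3 control libraries. The log2 fold change was 3.34 ± 0.25 (SE; edgeR adjusted p = 4.77e-06) in WT and 2.93 ± 0.24 (adjusted p = 9.49e-06) in KO, the largest of the 36 in both.

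Ctsh, an aminopeptidase of the papain family (chr9:90054152-90076089), had 256 and 247 CPM in WT control and 751 and 697 CPM after LPS+IFNγ. The KO values were 304 and 250 CPM in control and 734 and 679 CPM after LPS+IFNγ, so that the treated libraries again lay apart from the controls. The log2 fold changes were 1.53 ± 0.15 in WT (edgeR adjusted p = 2.08e-05) and 1.35 ± 0.14 in KO (4.58e-05). Ctsz, a carboxypeptidase (chr2:174427493-174439039), went from 748 CPM in both WT control libraries to 2100 and 2030 CPM, and from 771 and 753 to 2100 and 2160 CPM in KO. Its log2 fold changes of 1.46 ± 0.11 in WT and 1.48 ± 0.11 in KO were alike (edgeR adjusted p = 6.35e-06 and 6.60e-06). Ctss, a cathepsin active at neutral pH that processes the invariant chain of MHC class II, had 2410 and 2660 CPM in WT control and 4150 and 4430 CPM after LPS+IFNγ. It rose in WT by 0.76 ± 0.17 (edgeR adjusted p = 0.00462) but was not called with library totals alone (adjusted p = 0.223), and in KO the value was 0.36 ± 0.17 (adjusted p = 0.103).

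The proteases that fell covered a wide range of levels. Ctsf, a cysteine protease (chr19:4855130-4860918), had only 5.83 and 9.31 CPM in WT control and 2.04 and 2.30 CPM after LPS+IFNγ, with KO values of 8.29 and 8.97 and then 2.57 and 3.48 CPM. It fell by 1.80 ± 0.32 on the log2 scale in WT (edgeR adjusted p = 0.00118) and by 1.52 ± 0.32 in KO (0.00299). Tpp1, a tripeptidyl peptidase, had 326 and 328 CPM in WT control against 153 and 155 CPM after LPS+IFNγ, a fall of 1.09 ± 0.12 (edgeR adjusted p = 4.41e-05), and fell by 1.0 ± 0.12 in KO. Ctsa, the protective protein of the sialidase complex, fell by 0.56 ± 0.18 in WT (adjusted p = 0.0228) and by 0.67 ± 0.18 in KO (0.0100). That call ended without either WT control library or without WT LPS+IFNγ library 2 (adjusted p up to 0.142), and in KO without LPS+IFNγ library 2 (0.0563).

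The remaining proteases, Ctsb, Ctsd, Ctsl and Lgmn, were not called in WT, at log2 fold changes of -0.20, -0.40, -0.32 and -0.21. Ctsd had 9540 and 9460 CPM in WT control and 7420 and 7010 CPM after LPS+IFNγ, without overlap, at an edgeR adjusted p of 0.0608. In KO cells Ctsd fell by 0.82 ± 0.16 (adjusted p = 0.00196), from 11700 and 13700 to 7810 and 6540 CPM. Ctsb fell in KO by 0.44 ± 0.15 (0.0346), a call that ended without either KO control library or without KO LPS+IFNγ library 2 (adjusted p up to 0.0823). The difference between the KO and WT responses was -0.43 for Ctsd with a 95% interval of -0.93 to 0.08, so the genotypes were not shown to differ.

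Of the 8 glycosidases, 5 fell in WT (Gusb, Hexa, Manba, Man2b1 and Naglu), Gla rose, and Glb1 and Neu1 were not called. Their median log2 fold change was -0.88, and -1.38 with library totals alone, beside -0.05 and -0.55 over all genes tested. Of all genes tested, 27.4% rose and 27.0% fell. Gusb, the β-glucuronidase (chr5:129989011-130003049), had 684 and 680 CPM in WT control and 246 and 249 CPM after LPS+IFNγ. The KO values were 761 and 775 CPM and then 250 and 192 CPM, with no overlap between treated and control libraries. It fell by 1.46 ± 0.13 in WT (edgeR adjusted p = 1.72e-05) and by 1.80 ± 0.14 in KO (5.97e-06). Hexa, the α subunit of β-hexosaminidase (chr9:59539540-59565109), went from 817 and 789 CPM to 304 and 294 CPM in WT, and from 904 and 707 to 329 and 259 CPM in KO. It fell by 1.42 ± 0.18 and 1.45 ± 0.18 in the 2 genotypes (edgeR adjusted p = 0.000112 and 0.000102).

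Manba, the β-mannosidase (chr3:135485611-135571404), was a low transcript with 55.1 and 54.2 CPM in WT control and 23.9 and 24.9 CPM after LPS+IFNγ. In KO it had 58.3 and 63.9 CPM and then 25.0 and 18.3 CPM, and the falls were 1.16 ± 0.14 (edgeR adjusted p = 7.74e-05) and 1.49 ± 0.14 (1.87e-05). Man2b1, the lysosomal α-mannosidase, fell by 0.88 ± 0.13 in WT and 1.07 ± 0.13 in KO, and Naglu, which removes N-acetylglucosamine from heparan sulfate, by 0.88 ± 0.13 and 0.74 ± 0.13. Gla, the α-galactosidase A gene on the X chromosome (chrX:134588149-134601125), moved the other way. It had 158 and 164 CPM in WT control, 373 and 363 CPM after LPS+IFNγ, and in KO 170 and 178 and then 341 and 349 CPM. It rose by 1.19 ± 0.12 in WT (edgeR adjusted p = 2.51e-05) and 0.99 ± 0.12 in KO (8.65e-05). Neu1, the sialidase held in a complex with Ctsa, had log2 fold changes of 0.45 ± 0.17 in WT (adjusted p = 0.0508) and 0.66 ± 0.17 in KO (0.0102). The KO call ended without KO control library 2 (0.0708) and with library totals alone (0.466). Glb1, the β-galactosidase, was not called in either genotype at -0.23 and -0.39.

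**Figure D2:**
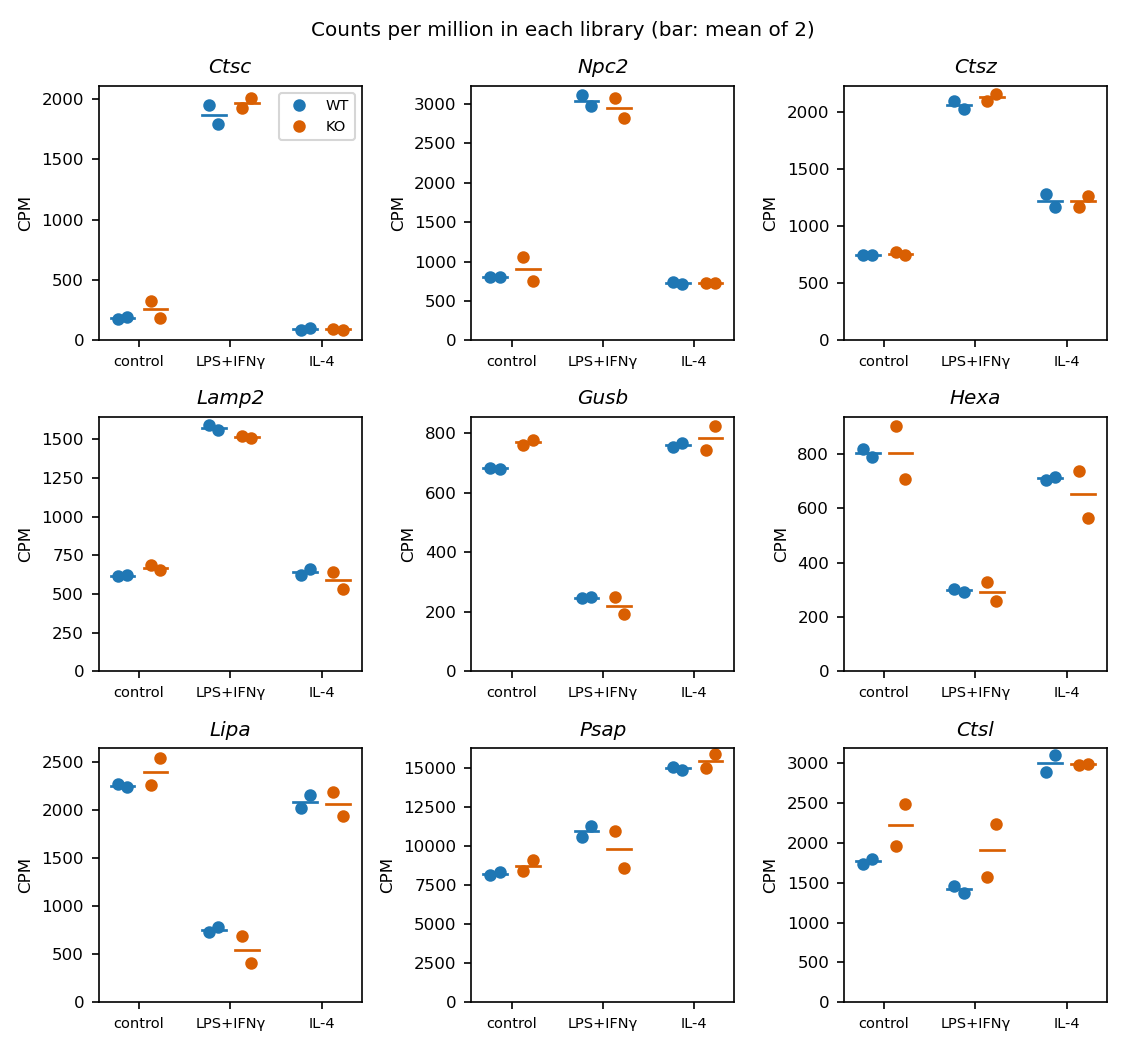
CPM (vertical axes, starting at 0) of 9 genes in every library by treatment (horizontal axes); points are the 2 libraries of a group and the bar is their mean, WT in blue and KO in orange. Ctsc, Npc2, Ctsz and Lamp2 were highest and Gusb, Hexa and Lipa lowest after LPS+IFNγ, whereas Psap and Ctsl were highest after IL-4.

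Of the 8 lipid hydrolases, sterol carriers and cofactors, 2 rose (Npc2 and Ppt1) and Lipa fell in WT. This stands beside 27.4% rising and 27.0% falling over all genes tested. Lipa, the acid lipase that frees cholesterol and fatty acids from lipoprotein esters (chr19:34492318-34527474), had 2270 and 2240 CPM in WT control and 732 and 782 CPM after LPS+IFNγ. In KO cells it had 2260 and 2540 CPM and then 691 and 406 CPM, the latter in the library with the granulocyte marker sum of 220 CPM, whose part in the value was not tested. Lipa fell by 1.58 ± 0.22 in WT (edgeR adjusted p = 0.00024) and by 2.13 ± 0.22 in KO (4.21e-05). Npc2, the soluble carrier that takes cholesterol from the lumen to Npc1 (chr12:84754562-84773152), had 807 and 802 CPM in WT control and 3110 and 2970 CPM after LPS+IFNγ. Its KO values were 1060 and 749 CPM and then 3080 and 2820 CPM, and the rises were 1.92 ± 0.16 (edgeR adjusted p = 1.09e-05) and 1.71 ± 0.16 (2.30e-05). Npc1, the membrane transporter that receives the sterol, had a log2 fold change of -0.33 ± 0.13 in WT (adjusted p = 0.0524) and fell by 0.51 ± 0.13 in KO (0.0082).

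Ppt1, which removes palmitate from proteins, rose by 0.61 ± 0.11 in WT (edgeR adjusted p = 0.00121) and 0.46 ± 0.11 in KO (0.00601). With library totals alone neither call held, at 0.11 in WT (adjusted p = 0.448) and -0.03 in KO. Psap and Grn, the saposin and granulin precursors, were not called in WT at 0.40 ± 0.16 and 0.43 ± 0.18 (adjusted p = 0.0567 and 0.0685). Grn rose in KO by 0.49 ± 0.18 (0.0424), a call that ended without KO control library 2 (0.221) or without KO LPS+IFNγ library 1 (0.0750) or 2 (0.104), and turned to -0.01 with library totals alone. Asah1, the acid ceramidase, had a log2 fold change of -0.32 ± 0.12 in WT (adjusted p = 0.0523) and fell by 0.54 ± 0.12 in KO (0.00469). Smpd1, the acid sphingomyelinase, was not called at 0.04 ± 0.20 and 0.08 ± 0.20.

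The membrane proteins showed 2 rises and 3 falls among 6 in WT, beside 27.4% and 27.0% of all genes tested. Lamp2, whose isoforms serve membrane integrity and chaperone-mediated autophagy (chrX:38401357-38456454), had 614 and 620 CPM in WT control and 1590 and 1560 CPM after LPS+IFNγ. In KO it had 688 and 654 CPM and then 1520 and 1510 CPM. It rose by 1.35 ± 0.12 in WT (edgeR adjusted p = 1.45e-05) and 1.18 ± 0.12 in KO (3.55e-05), while its relative Lamp1 was not called at 0.11 ± 0.16 and 0.04 ± 0.16. Scarb2, the receptor that carries β-glucocerebrosidase to lysosomes, had 204 and 213 CPM in WT control and 392 and 398 CPM after LPS+IFNγ. In KO it had 227 and 207 CPM and then 391 and 224 CPM, so that the treated libraries differed widely. Scarb2 rose in WT by 0.92 ± 0.21 (adjusted p = 0.00476, and 0.138 with library totals alone) and was not called in KO at 0.50 ± 0.21 (0.0704).

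Cd68 (chr11:69664213-69666153) had 1090 and 1000 CPM in WT control and 432 and 361 CPM after LPS+IFNγ, with KO values of 1160 and 1180 and then 476 and 567 CPM. It fell by 1.40 ± 0.26 in WT (edgeR adjusted p = 0.00144) and 1.17 ± 0.26 in KO (0.00404). Cd63, a tetraspanin of late endosomes, fell by 1.09 ± 0.24 in WT (0.00338) and 0.82 ± 0.23 in KO (0.0148). The KO call of Cd63 ended without KO control library 2 (0.0744) or KO LPS+IFNγ library 1 (0.0767). Mcoln1, a calcium channel of the lysosomal membrane, fell by 0.49 ± 0.12 in WT (0.00645) and was not called in KO at -0.15 ± 0.12.

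The 3 transcription factors did not move alike. Tfeb had 52.1 and 44.4 CPM in WT control, 29.5 and 27.4 CPM after LPS+IFNγ, and 74.9 and 48.9 CPM after IL-4. In KO cells it had 38.9 and 27.7, 30 and 23.9, and 72.1 and 72.1 CPM. The KO control libraries lay below the WT control libraries, and those with LPS+IFNγ overlapped. Tfeb fell in WT by 0.76 ± 0.22 after LPS+IFNγ (edgeR adjusted p = 0.0164), a call that ended without WT control library 1 or either WT LPS+IFNγ library (adjusted p up to 0.0938), and was not called in KO at -0.30 ± 0.22, where library totals alone gave a called fall of 0.79 (-0.79, adjusted p = 0.0145). Mitf had 105 and 103 CPM in WT control, 169 and 174 CPM after LPS+IFNγ, and 164 and 178 CPM after IL-4, with KO values of 89.9 and 111, 151 and 127, and 179 and 162 CPM. It rose after LPS+IFNγ by 0.72 ± 0.13 in WT (0.00116) and 0.47 ± 0.13 in KO (0.0123). Tfe3, on the X chromosome, had 114 and 106 CPM in WT control and 145 and 132 CPM after LPS+IFNγ, and in KO 117 and 111 and then 162 and 154 CPM. It rose by 0.33 ± 0.12 in WT (0.0418) and 0.47 ± 0.12 in KO (0.00938).

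With library totals alone, Tfe3 turned to -0.17 in WT and -0.03 in KO and Mitf to -0.02 in KO, none of them called, and the WT rise of Mitf was no longer called (adjusted p = 0.2). The Tfe3 call in WT also ended without any of the 4 libraries compared, with adjusted p of 0.0639 to 0.211, and the KO call of Mitf without KO control library 1 (0.0857) or KO LPS+IFNγ library 1 (0.0773). Of the 10 genes with an E-box in the window, Gla rose with LPS+IFNγ in WT, and Ctsa, Ctsf, Naglu and Mcoln1 fell. Ctsd, Ctsl, Lgmn, Glb1 and Lamp1 were not called. Over all genes tested, 27.4% rose and 27.0% fell in that comparison. The Ctsa call ended in fits that left out a single WT library, and Ctsf had at most 9.31 CPM in any library. Whether genes with the motif moved differently from those without it was not tested, and nothing particular to the motif is drawn.

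**Figure D3:**
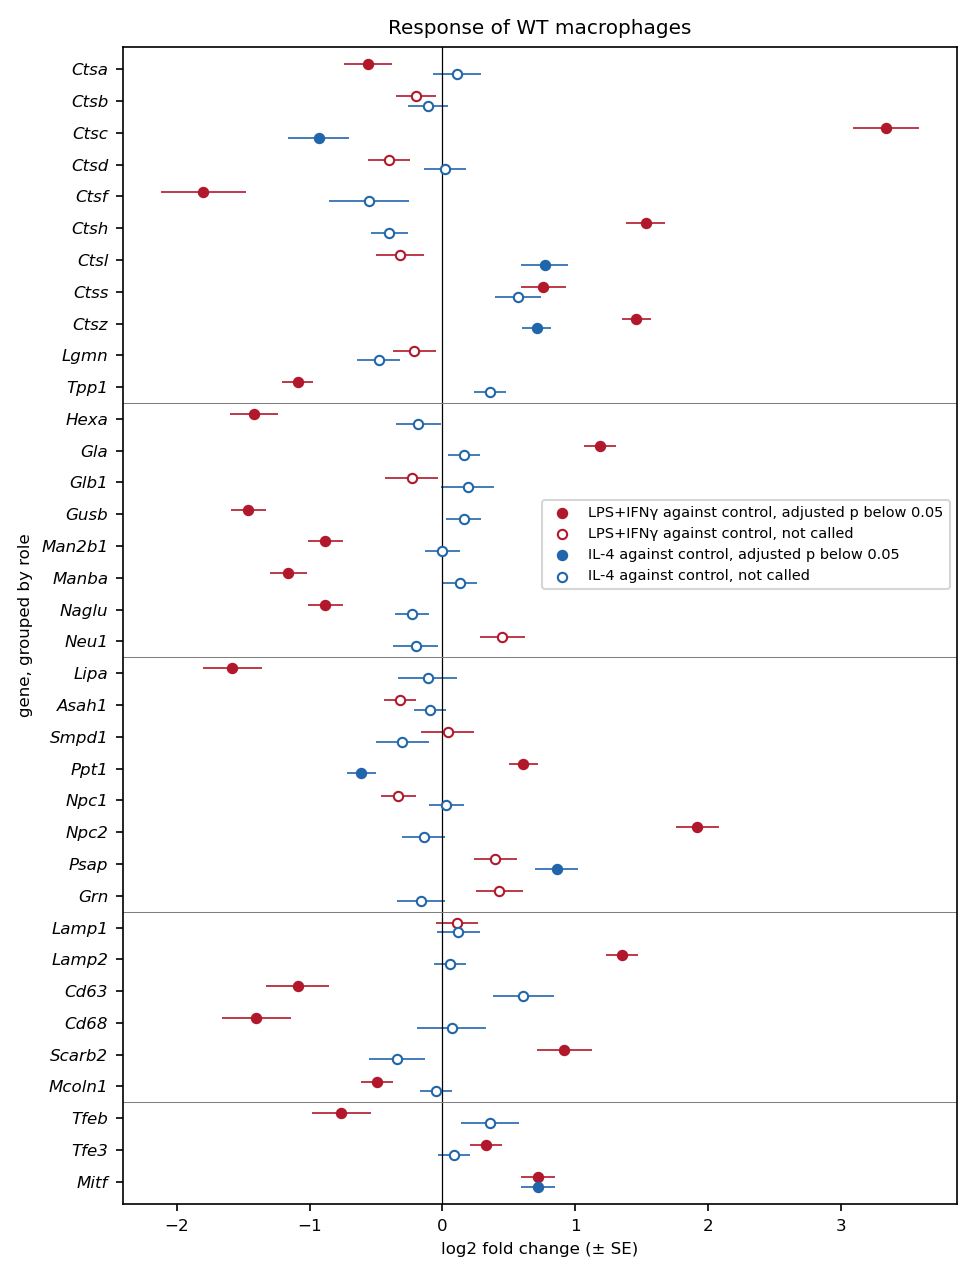
Log2 fold change with its SE (horizontal axis) for each of the 36 genes (vertical axis, grouped by role) in WT cells, LPS+IFNγ against control in red and IL-4 against control in blue; filled points passed an adjusted p of 0.05. Both comparisons use the same 2 control libraries, and 24 genes were called with LPS+IFNγ against 6 with IL-4.

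Few of these genes were called with IL-4 in the main fit, while the DESeq2 Wald test called 10 in WT and 11 in KO. In WT, 4 rose (Psap, Ctsl, Mitf and Ctsz) and 2 fell (Ctsc and Ppt1), against 4.92% and 4.12% of all genes tested, with a median log2 fold change of 0.03 beside -0.02 over all genes. In KO, 4 rose (Tfeb, Psap, Mitf and Ctsz) and 3 fell (Ctsc, Ppt1 and Ctsh), against 3.52% and 3.34% of all genes, with a median of -0.11 beside 0.00. No glycosidase and no membrane protein of the list was called in either genotype. The comparison shares its control libraries with the LPS+IFNγ comparison, so values are given side by side and no overlap between them is drawn.

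Psap (chr10:60277627-60302597) had 8170 and 8330 CPM in WT control, 15100 and 14900 CPM after IL-4 and 10600 and 11300 CPM after LPS+IFNγ. In KO it had 8390 and 9110, 15000 and 15900, and 11000 and 8630 CPM, and the IL-4 libraries lay above all others in both genotypes. Psap rose with IL-4 by 0.86 ± 0.16 in WT (edgeR adjusted p = 0.0131) and 0.82 ± 0.16 in KO (0.0188). Ctsl, a broad cysteine endopeptidase (chr13:64359337-64370890), had 1730 and 1800 CPM in WT control, 2890 and 3100 CPM after IL-4 and 1460 and 1370 CPM after LPS+IFNγ. In KO the values were 1960 and 2480, 2970 and 2990, and 1570 and 2240 CPM, with KO library 2 the higher in control and after LPS+IFNγ. Ctsl rose with IL-4 in WT by 0.77 ± 0.18 (0.0326) and was not called in KO at 0.42 ± 0.18 (0.189).

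Ctsz stood at 1280 and 1170 CPM after IL-4 in WT and at 1170 and 1270 CPM in KO, between control and LPS+IFNγ. It rose with IL-4 by 0.71 ± 0.11 in WT (edgeR adjusted p = 0.0066) and 0.69 ± 0.11 in KO (0.00881). Mitf rose by 0.72 ± 0.13 in WT (0.0112) and 0.76 ± 0.13 in KO (0.0100). Ctsc fell by 0.93 ± 0.23 in WT (0.0369) and by 1.48 ± 0.23 in KO (0.00731), opposite to its rise with LPS+IFNγ. Ppt1 also went in opposite directions, from 116 and 119 CPM in WT control to 75.9 and 77.7 CPM after IL-4 and 184 and 174 CPM after LPS+IFNγ. Its KO values were 145 and 122, 80.6 and 73.8, and 193 and 175 CPM, and it fell with IL-4 by 0.61 ± 0.11 in WT (0.0115) and 0.79 ± 0.11 in KO (0.0044).

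Ctsh fell with IL-4 in KO alone by the threshold, at -0.65 ± 0.14 (edgeR adjusted p = 0.0304) against -0.40 ± 0.14 in WT (0.117), and the responses were not shown to differ. Tfeb rose with IL-4 in KO by 1.11 ± 0.22 (0.0196) and was not called in WT at 0.36 ± 0.22 (0.350), where library 1 had 74.9 CPM and library 2 48.9 CPM. The difference of the 2 responses was 0.76 with a 95% interval of 0.06 to 1.45 and an unadjusted edgeR p of 0.0361, which did not survive adjustment (adjusted p = 1). Tfe3 was not called with IL-4 at 0.09 ± 0.12 in WT and -0.06 ± 0.12 in KO. The IL-4 calls rest on few libraries: in WT, leaving out 1 of the 4 compared libraries left 0 calls, or 1 (Ctsz) without IL-4 library 2. Fitted on the KO control and IL-4 libraries alone, all 7 KO calls ended, with edgeR adjusted p of 0.129 (Psap) to 0.237 (Ctsh). In the fit of all groups, the KO calls of Ctsc, Ctsh, Psap and Tfeb ended without IL-4 library 2, those of Ctsh, Psap and Mitf without control library 1 and that of Tfeb without control library 2.

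Set against each other, the 2 stimuli separated most of the list. LPS+IFNγ libraries were higher than IL-4 libraries for 10 genes and lower for 16 in WT, against 28.1% and 28.1% of all genes tested, and higher for 12 and lower for 17 in KO, against 26.7% and 28.1%. Median log2 differences were -0.30 in WT and -0.32 in KO, beside -0.03 and -0.07 over all genes. With library totals alone the counts became 8 and 22 in WT and 7 and 22 in KO, where 28.1% and 25.3% of all calls were in favour of LPS+IFNγ instead of 49.9% and 48.7%. That scaling lowered these contrasts by 0.43 and 0.48 on the log2 scale, and ended the calls of Neu1 and Grn in both genotypes and of Smpd1 in KO.

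Ctsc showed the largest gap, at 4.27 ± 0.26 in WT (edgeR adjusted p = 1.44e-06) and 4.42 ± 0.26 in KO (1.30e-06). It was followed in WT by Npc2 (2.06), which had 742 and 721 CPM after IL-4, Ctsh (1.92), with 191 CPM in both IL-4 libraries, and Lamp2 (1.29), with 624 and 661 CPM. The KO levels after IL-4 were 726 and 723 CPM for Npc2, 199 and 155 CPM for Ctsh and 641 and 534 CPM for Lamp2, and the KO differences were 2.02, 2.00 and 1.37. Scarb2, at 165 CPM in both WT IL-4 libraries and at 168 and 190 CPM in KO, was higher with LPS+IFNγ by 1.26 ± 0.21 in WT and 0.78 ± 0.21 in KO. The KO call of Scarb2 ended without KO IL-4 library 1 (adjusted p = 0.0636) and with library totals alone (0.264). Ppt1 differed by 1.22 ± 0.11 in WT and 1.25 ± 0.11 in KO.

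On the other side stood Cd63, with 1160 and 1090 CPM after IL-4 and 315 and 377 CPM after LPS+IFNγ in WT, and 1050 and 1450 against 318 and 521 CPM in KO. It was lower with LPS+IFNγ by 1.70 ± 0.24 in WT and 1.57 ± 0.24 in KO, as log2 differences of -1.70 and -1.57 (edgeR adjusted p = 0.000236 and 0.000396). Gusb had 754 and 765 CPM after IL-4 in WT and 744 and 822 CPM in KO, with log2 differences of -1.62 ± 0.14 and -1.83 ± 0.14. The LPS+IFNγ libraries of both genes lay below every IL-4 library. Cd68 had 1010 and 1190 CPM in WT and 1270 and 672 CPM in KO after IL-4, with log2 differences of -1.47 ± 0.26 and -0.90 ± 0.26. The KO call of Cd68 ended without KO IL-4 library 1 (adjusted p = 0.117) or KO LPS+IFNγ library 1 (0.0832). Lipa, with 2020 and 2160 CPM after IL-4 in WT and 2190 and 1940 CPM in KO, differed by -1.46 ± 0.22 and -1.91 ± 0.22. Tpp1, with 403 and 436 CPM after IL-4 in WT and 453 and 380 CPM in KO, differed by -1.45 ± 0.12 and -1.23 ± 0.12, and Manba, with 58.3 and 61.6 CPM in WT and 63.2 and 62.5 CPM in KO, by -1.30 ± 0.14 and -1.53 ± 0.14. Tfeb was lower with LPS+IFNγ in both genotypes at -1.12 ± 0.22 and -1.41 ± 0.23, and Mitf was not called at 0.00 ± 0.13 and -0.29 ± 0.13. Mitf was called lower with LPS+IFNγ under library totals alone, at -0.43 in WT (edgeR adjusted p = 0.0244) and -0.77 in KO (0.00113), and in KO also without LPS+IFNγ library 1 (0.0376). Tfe3 was called higher in KO at 0.52 ± 0.12 and not called in WT at 0.24 ± 0.12. Its KO value was 0.04 with library totals alone (adjusted p = 0.773), and with the compared groups alone the KO call ended (0.0703) and the WT value was called (0.22, 0.0458).

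The question of the knockout is whether loss of Ptprz1 altered these levels or their responses. None of the 36 genes was called between KO and WT cells, whether untreated, given LPS+IFNγ, given IL-4 or averaged over treatments, where 0.0739%, 0.0591%, 0.0665% and 0.170% of all genes tested were called. Unadjusted edgeR p-values below 0.05 were found for 2, 2, 0 and 1 of the 36. Of all 13525 genes tested, 460 were higher and 551 lower in KO at that unadjusted threshold in control. The counts were 652 and 467 after LPS+IFNγ and 275 and 178 after IL-4. Among the 36, DESeq2 also called 0 in each of the 4 comparisons. None was called in the difference between KO and WT responses either, to LPS+IFNγ or to IL-4, where 0% of all genes was called in both. An unadjusted edgeR p below 0.05 was found for 0 and 1 of the 36, and DESeq2 called 0. For the responses and the mean over treatments, the unadjusted share over all genes is not given. Nothing is drawn from those unadjusted counts. In the mean over treatments the 36 log2 fold changes ran from -0.13 (Lipa) to 0.31 (Ctsf), and their 95% intervals all lay between -0.42 and 0.72. Within single treatments the intervals were wider, reaching from -1.03 to 0.99 in control and from -0.95 to 1.23 after LPS+IFNγ.

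**Figure D4:**
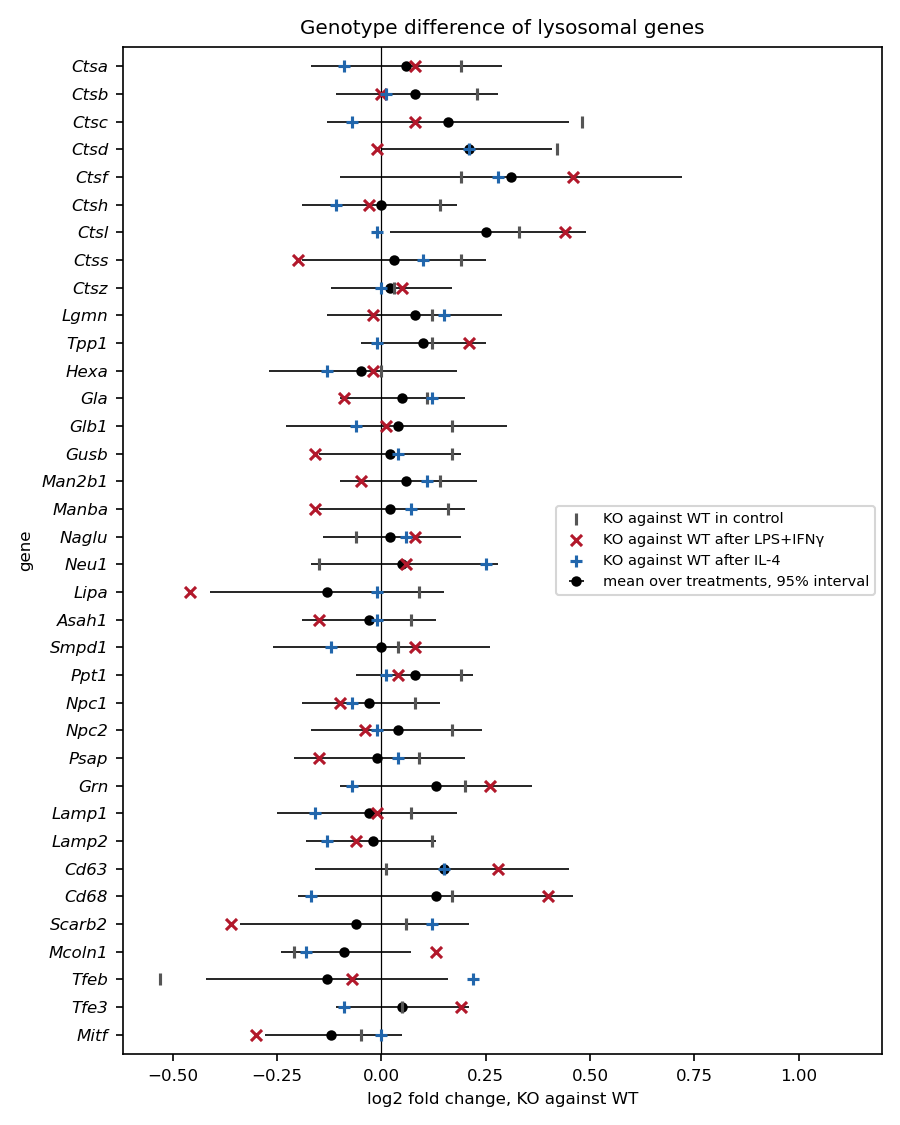
Log2 fold change of KO against WT (horizontal axis) for the 36 genes (vertical axis); black points and bars are the mean over treatments with its 95% interval and coloured marks are the 3 treatments. The means lie between -0.13 and 0.31, and none passed an adjusted p of 0.05.

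The 3 genes with the smallest unadjusted p in the mean over treatments were Ctsl, Ctsd and Ctsf. Ctsl was higher in the KO mean by 0.25 ± 0.10 (95% interval 0.02 to 0.49, edgeR adjusted p = 0.421), its value being 0.44 with LPS+IFNγ, 0.33 in untreated cells and -0.01 with IL-4. Ctsd had 0.21 (adjusted p = 0.439), most of it in control cells at 0.42 ± 0.16 (0.666), and Ctsf 0.31 (0.516). The summed stromal markers were also higher in KO libraries, at 346 and 834 CPM in KO control against 64.3 and 340 CPM in WT control and at 285 and 687 CPM against 65.1 and 190 CPM after LPS+IFNγ. After IL-4 they were 339 and 1341 CPM in KO against 60.8 and 205 CPM in WT, and library 2 had the higher sum in all 6 groups. None of the 7 stromal genes tested was called between genotypes by edgeR. In the mean over treatments 4 of them had an unadjusted edgeR p below 0.05, all higher in KO. The share of all genes at that unadjusted threshold is not given. The median log2 fold change was 1.32 over the 7, beside 0.01 over all genes tested. The part of such cells in the values was not tested. Tfeb in control cells had -0.53 ± 0.22 (95% interval -1.03 to -0.04, edgeR adjusted p = 0.666). Mitf, on chromosome 6 like Ptprz1, had -0.30 ± 0.13 after LPS+IFNγ (0.603), -0.05 in control and -0.00 after IL-4. The part of the shared chromosome in these values was not tested. The 3 X-linked genes had mean values of 0.05 (Gla), -0.02 (Lamp2) and 0.05 (Tfe3).

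Since the KO libraries differ among themselves, they can set a call. Without KO LPS+IFNγ library 1, which leaves the KO group with library 2 and assumes that it varies like the other groups, Lipa (-0.90, edgeR adjusted p = 0.0169) and Scarb2 (-0.82, 0.0122) were called lower in KO after LPS+IFNγ. With all libraries these values were -0.46 and -0.36 and were not called. Without the 3 KO libraries numbered 2, Ctsc was called higher in KO control cells at 0.83 (0.0206), as opposed to 0.48 and no call with all libraries. Both rest on a lone KO library per treatment.

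The responses of the 2 genotypes use separate libraries and can be overlaid. With LPS+IFNγ, 20 genes were called in the same direction in both (9 higher, 11 lower) and 0 in opposite directions, which is 83.3% of the WT calls and 76.9% of the KO calls, beside 85.2% and 86.9% over all genes. With IL-4, 5 genes were shared (83.3% of WT calls, 71.4% of KO calls, beside 51.3% and 67.6% over all genes). Between the stimuli, 25 were shared (96.2% and 86.2%, beside 84.6% and 86.7%). Differences between these shares and those over all genes were not tested.

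**Figure D5:**
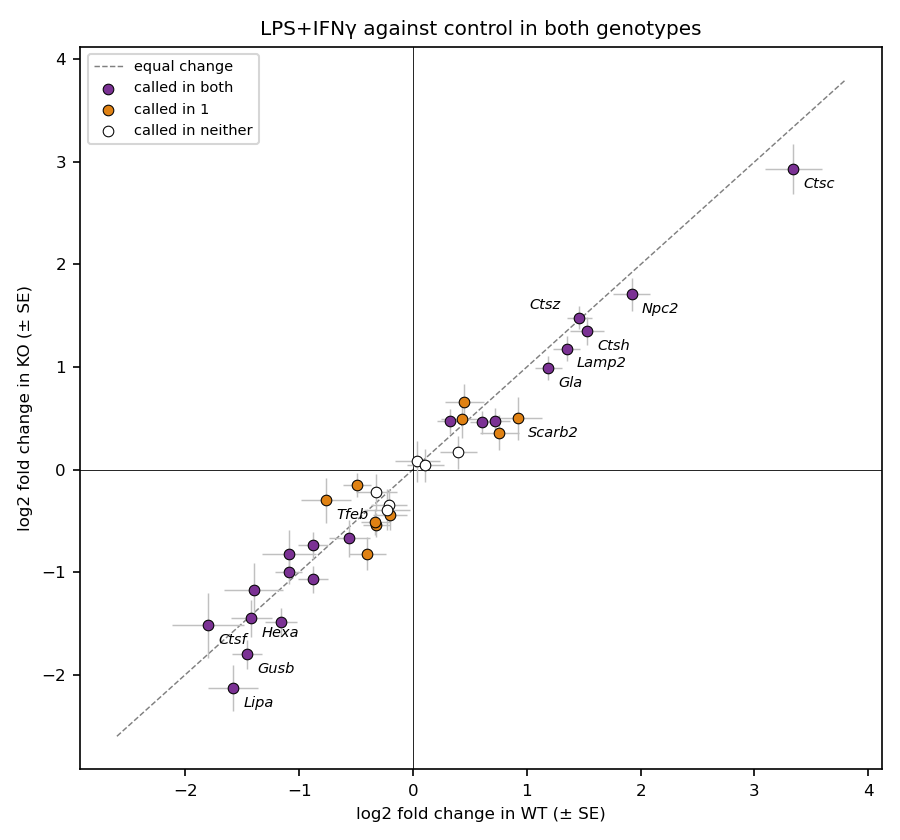
Log2 fold change of LPS+IFNγ against control in WT (horizontal axis) and KO (vertical axis), each with its SE, for the 36 genes; colour shows calls in both, 1 or neither genotype and the dashed line marks equal change. The points follow the line from Lipa (-1.58 in WT, -2.13 in KO) to Ctsc (3.34 and 2.93).

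Other genes of the lysosome were looked at by role for comparison, as counts in WT cells. These counts stand beside 27.4% of all genes rising and 27.0% falling with LPS+IFNγ, and 4.92% and 4.12% with IL-4, and nothing particular to a list is drawn from them. Under library totals alone, 2048 of the 13525 genes tested rose and 6170 fell with LPS+IFNγ in WT. List counts given for that scaling stand beside these. Of 17 subunits and partners of the V-ATPase, the proton pump that acidifies the lumen, 6 rose and 4 fell with LPS+IFNγ, and 3 rose with IL-4. Atp6v0d2, an isoform of the d subunit found in macrophages and osteoclasts, fell from 289 and 309 CPM to 9.26 and 12 CPM with LPS+IFNγ (log2 fold change -4.81 ± 0.56). Atp6v0a1 fell by 1.83 ± 0.17 with LPS+IFNγ and rose by 1.56 ± 0.16 with IL-4, while its paralogue Atp6v0a2 rose by 1.42 ± 0.13 with LPS+IFNγ, and Atp6v1b2 rose by 0.87 ± 0.14 with IL-4. Of the 17, 1 rose and 9 fell with LPS+IFNγ under library totals alone.

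Among 24 further hydrolases, 8 rose and 10 fell with LPS+IFNγ, and 4 rose and 1 fell with IL-4. Acp2, an acid phosphatase, rose by 1.91 ± 0.17 with LPS+IFNγ and Acp5, the tartrate-resistant phosphatase, by 0.90 ± 0.18. Galc, which cleaves galactosylceramide, fell by 2.35 ± 0.17, Dnase2a, the acid nuclease, by 2.34 ± 0.11 and Arsb, a sulfatase, by 1.77 ± 0.10. With IL-4, Acp5 rose by 1.42 ± 0.18 and the protease Ctsk by 1.41 ± 0.30, and Sgsh, a sulfamidase, fell by 1.14 ± 0.16. Acp5 and Ctsk are also on the list of 5 osteoclast markers, which summed to 304 and 306 CPM in WT IL-4 libraries and 81.9 and 79.7 CPM in WT control. Under library totals alone 2 of the 24 rose and 15 fell with LPS+IFNγ, and Acp5 was not called (0.40, adjusted p = 0.0780).

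Of 10 genes that sort enzymes to the lysosome, 5 rose and 4 fell with LPS+IFNγ and 0 were called with IL-4. Sort1, a sorting receptor, fell by 3.57 ± 0.16, the adaptor Gga2 by 1.91 ± 0.14 and Gnptg, a subunit of the enzyme that builds the mannose 6-phosphate tag, by 1.03 ± 0.16. M6pr, the smaller receptor of that tag, rose by 0.94 ± 0.10, followed by Sumf1 at 0.50 and Gnptab at 0.48, both of which were not called with library totals alone (0.01 and -0.02). Among 5 protease inhibitors, 3 rose and 1 fell with LPS+IFNγ: Cst7, cystatin F, went from 0.194 and 0.493 CPM to 71.0 and 70.2 CPM, Serpinb1a from 0.0972 and 0 CPM to 3.75 and 4 CPM, and Cstb rose by 0.50. The control levels of Cst7 and Serpinb1a lie near that of a few counts, so no fold is given, and Cstb stood at 0.00 with library totals alone. Serpinb6a fell by 2.23 ± 0.13. With IL-4, Serpinb1a was called higher at 0.614 and 1.13 CPM.

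Of 14 genes of nutrient sensing at the lysosomal surface, 3 rose and 3 fell with LPS+IFNγ. Rragd, a Rag GTPase, fell by 3.40 ± 0.50, and Lamtor1 and Rragc fell by 0.33 and 0.29. Fnip2 rose by 0.64 ± 0.10, Slc38a9 by 0.41 and Mtor by 0.30, and none of these 3 was called with library totals alone. With IL-4, Slc38a9 rose by 0.58 and Fnip2 fell by 0.41. Of 15 autophagy genes, 8 rose and 1 fell with LPS+IFNγ, and 0 were called with IL-4. Sqstm1, the cargo receptor p62, rose by 2.28 ± 0.15, from 362 and 379 to 1760 and 1840 CPM, Atg9a by 0.94 ± 0.17 and Atg5 by 0.90 ± 0.10, and the receptor Optn fell by 1.52 ± 0.25. Under library totals alone 3 of the 15 rose and 5 fell.

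Of 17 other membrane proteins and transporters, 8 rose and 6 fell with LPS+IFNγ (7 and 7 with library totals alone), and 1 rose and 1 fell with IL-4. Cd164, a sialomucin, rose by 2.51 ± 0.17, the chloride and proton exchanger Clcn7 by 1.59 ± 0.12 and Slc11a1, a metal transporter of phagosomes, by 1.52 ± 0.12. The 2-pore channel Tpcn1 fell by 2.07 ± 0.36, Slc37a2 by 1.56 ± 0.30 and Abca2 by 1.52 ± 0.13. With IL-4, Tpcn2 rose by 0.94 ± 0.13 and Slc11a1 fell by 0.66 ± 0.12.

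In KO cells the same lists gave these counts with LPS+IFNγ: 6 higher and 5 lower among the V-ATPase genes, 7 and 10 among the further hydrolases, 4 and 4 in sorting, 3 and 1 among the inhibitors, 3 and 3 in nutrient sensing, 8 and 1 in autophagy and 9 and 5 among the other membrane proteins. With IL-4, 3 V-ATPase genes, 4 further hydrolases and 1 other membrane protein were higher in KO, and 3 further hydrolases and 1 other membrane protein were lower. Beside these KO counts, 27.2% of all genes tested rose and 26.1% fell with LPS+IFNγ, and 3.52% and 3.34% with IL-4. Nothing particular to a list is drawn from them, and differences between the genotypes in these counts were not tested.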

How the data were processed

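RNA of 12 libraries, 2 for each of 6 groups, was sequenced from a directional library kit, per the labels' protocols. The authors deposited a table of estimated counts per gene, held as whole numbers (0 values were not whole); the submitters' processing notes name FastQC 0.11.9, Salmon 1.10.2, R 4.4.1, DESeq2 1.45.3 and GRCm39, with no role or order given. Of 55891 gene identifiers, 51425 (92.0%) were paired with a symbol and position through a GRCm38 annotation; coordinates and exon lengths are from that build and were not converted. All 36 genes were found.

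Counts were analysed in R 4.3.3 with edgeR 4.0.16 (limma 3.58.1): filterByExpr, which left 13525 genes, TMM scaling, 1 coefficient per group over all 12 libraries, and the quasi-likelihood test with Benjamini-Hochberg adjustment over all genes tested at 0.05. There were 6 residual degrees of freedom. The SE is the size of the log2 fold change divided by the root of F. The procedure was also run on simulated counts that gave WT and KO libraries the same spread. That run cannot show how the test behaves where KO libraries vary more, and nothing is drawn from it. Alternatives were DESeq2 1.42.0 with its Wald test, its size factors within edgeR, library totals alone, no filter on low counts, the compared groups alone, each library left out, and the replicate number as a block; leaving out the 3 KO libraries numbered 2 together was chosen after seeing the data. Promoters were read from RefSeq windows with python 3.11.15.

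The 36 genes, the marker lists and the pathway lists were chosen with earlier results of these data known. All 36 are described; in each comparison of stimuli up to 6 called genes per direction with the largest change in WT are given in full, the 3 transcription factors always, and for genotype the 3 genes with the smallest unadjusted p in the mean over treatments; among pathway genes up to 3 called in each direction, ranked by size. Some pathway genes that this rule would name are not reported here.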

Additional observations from a re-analysis of the deposited data

How the results depend on the processing

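The number of the 36 genes called kept within 1.5 times its value in most settings. Fitting the compared groups alone gave 15 called with LPS+IFNγ in KO (26 with all libraries), 12 with IL-4 in WT (6), 0 with IL-4 in KO (7) and 17 between the stimuli in KO (29). The DESeq2 Wald test gave 10 with IL-4 in WT and 11 in KO. Leaving out 1 library gave 0 to 1 with IL-4 in WT, 3 to 9 with IL-4 in KO and 0 to 2 between KO and WT after LPS+IFNγ. Without the 3 KO libraries numbered 2, 13 were called with IL-4 in KO and 1 between KO and WT in control. With library totals alone, log2 fold changes turned to -0.17 for Tfe3 with LPS+IFNγ in WT and, in KO, to -0.03 for Ppt1, -0.01 for Grn, -0.03 for Tfe3 and -0.02 for Mitf. Between the stimuli they turned to -0.20 for Tfe3 and -0.43 for Mitf in WT and -0.02 for Neu1 in KO. Tfe3 with IL-4 in KO (-0.06) ran from -0.24 to 0.11 when 1 library was left out and was 0.06 without the 3 KO libraries. Mitf between the stimuli in WT (0.00) was -0.02 without the filter and with the compared groups alone, and -0.06 to 0.06 with 1 library left out. Beyond the scaling and the smaller number of libraries, the cause was not tested. Of 1369 comparisons over 128 values of single genes, nearly all of them called with all libraries and TMM, so that few could gain a call, 1208 kept their direction and side of the threshold, 142 lost a call, 5 gained it and 14 changed sign. With library totals alone, falls with LPS+IFNγ in WT went from 13 to 20 of the 36 genes, and from 3648 to 6170 over all genes tested.

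Among calls over all genes, the share that were rises with IL-4 was 54.4% in WT (43.7% with library totals alone) and 51.3% in KO (44.7% with DESeq2 size factors).

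With the replicate number as a replicate block, 24 and 27 of the 36 genes were called with LPS+IFNγ in WT and KO, 6 and 8 with IL-4, 27 and 28 between the stimuli, and 0 between genotypes or their responses. Neu1 between the stimuli in KO lost its call (adjusted p = 0.054). Same-numbered libraries deviated together by more than 0.1 (Pearson r) in 14 of 15 pairs of groups, the lowest being 0.046 and the highest 0.337. Libraries of the same number thus shared part of their deviation. The labels do not say what a number marks, and the source of that shared part was not tested. The main fit holds no term for it, so its SE and p-values treat the 2 libraries of a group as unpaired. With 2 libraries a group, leaving out 1 assumes that the lone library varies like the other groups. A count of 3 limits detection to 0.138 to 0.290 CPM, and the lowest level among the 36 was 2.04 CPM, for Ctsf.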
